A study of Mus musculus with 6 samples.

Results

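The 51 genes described here encode the proteins that copy DNA and supply its building blocks. They were taken by symbol from the 52183 genes of the deposited expression table and fall into 5 roles: 13 genes of origin licensing, 12 of the helicase, 12 of the polymerases with primase and single-strand binding, 8 of the sliding clamp with its loader and flap processing, and 6 of nucleotide synthesis. All 51 were found. RNA sequencing covered haematopoietic stem cells, the bone marrow cells from which all blood cells descend, which were purified by FACS from female mice aged 4 months. The control group has 3 libraries labelled with the genotype Control, and the other group has 3 libraries labelled Thbs1 knockout, a deletion of the gene for the secreted matrix protein thrombospondin 1. The labels do not name the strain, the deleted part of the gene, whether the deletion covers all tissues or the number of animals behind each library. The p-values therefore rest on a spread between libraries that may be technical. The comparison asks which transcripts of the stem cells differ between the genotypes.

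Replication begins when the origin recognition complex, with Cdc6 and Cdt1, loads the ring-shaped Mcm2-7 helicase onto DNA in G1. Cdc45 and the GINS complex then join it to form the active helicase, polymerase alpha with primase starts each strand, and polymerases delta and epsilon extend it while held by the sliding clamp Pcna, which the RFC complex loads. Ribonucleotide reductase, thymidylate synthase and thymidine kinase supply deoxynucleotides. Most adult stem cells rest outside the cell cycle, and E2F transcription factors raise many of these genes when cells enter S phase. In a pool of sorted cells, fewer cells in S phase and less transcript per cell cannot be told apart.

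Levels are in FPKM, a fragment count divided by exon length and by the mapped fragments of each library. Depths between 22730000 and 30890000 reads were estimated from the steps between FPKM values. They estimate the divisor used for FPKM, which may differ from the mapped fragments. Thbs1 itself had FPKM of 4.12, 13.82 and 2.33 in the controls, against 10.82, 8.5 and 7.68 in the libraries labelled knockout (exact two-sided permutation p = 0.5, where 3 against 3 libraries cannot go below 0.1). Its level does not bear out the label, so the group is called by its label throughout. All 14 stem cell markers passed the filter of at least 1 FPKM in 3 libraries, among them Kit and Procr, while 9 of 12 lymphoid markers, including Cd3e and Ebf1, read at most 0.42 FPKM in every library. Of 12 granulocyte and monocyte markers, 6 stayed under 1 FPKM in every library. Single genes of other lineages were high, with control and labelled means of 1070 and 1039 FPKM for Car2, 367 and 345 FPKM for Lyz2 and 315 and 189 FPKM for Pf4. In the lymphoid list, Nkg7 averaged 88.6 and 54.6 FPKM and Cd79b 28.1 and 24.4 FPKM. In the granulocyte and monocyte list, Prtn3 averaged 83.0 and 63.6 FPKM. Limma, at the adjusted threshold of 0.05, called Ly6a of 14 tested stem cell, Hbb-bt of 8 erythroid and Nkg7 of 3 lymphoid markers lower. It called 0 of 7 megakaryocyte and 0 of 4 granulocyte and monocyte markers, and none of these lists had a higher call. Of all 12555 tested genes, 0.996% were called lower and 0.566% higher. At an unadjusted p below 0.05 stood 6 stem cell and 2 lymphoid markers, beside 16.4% of all tested genes. The erythroid, megakaryocyte, and granulocyte and monocyte lists had 1 each. Markers of multipotent progenitors, the first descendants of stem cells, summed to between 203.75 and 216.55 FPKM in control libraries. In libraries labelled knockout the sum lay between 170.33 and 179.66 FPKM. Of the 7 tested, 2 were called lower, Ikzf1 among them, 0 were called higher, and 4 stood at an unadjusted p below 0.05. The part of this marker shift in the results on replication genes was not tested.

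The sole member called by limma, Pcna, has a near-identical processed pseudogene, Pcna-ps2, and the pairs of stretches below show how little separates their reads. Pcna-ps2 (ENSMUSG00000067608, chr19:9283380-9284160, GRCm38) aligned over its 781 bases to bases 280 to 1060 of the main Pcna transcript, which is 1518 bases long with 783 coding bases. The sequences come from the GENCODE M21 transcripts, are written 5′ to 3′, and have the differing bases in capitals, with 20 bases on each side.
Pcna, positions 123 to 196: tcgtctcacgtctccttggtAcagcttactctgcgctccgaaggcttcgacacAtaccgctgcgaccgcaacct
Pcna-ps2, positions 123 to 196: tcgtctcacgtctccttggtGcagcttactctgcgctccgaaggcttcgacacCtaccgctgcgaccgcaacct
Pcna, positions 403 to 443: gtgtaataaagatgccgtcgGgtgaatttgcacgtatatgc
Pcna-ps2, positions 403 to 443: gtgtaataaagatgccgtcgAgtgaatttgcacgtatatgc
Pcna, positions 565 to 637: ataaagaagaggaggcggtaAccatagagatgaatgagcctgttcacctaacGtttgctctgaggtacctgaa
Pcna-ps2, positions 565 to 637: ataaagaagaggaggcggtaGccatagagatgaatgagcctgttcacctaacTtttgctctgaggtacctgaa
Pcna, positions 678 to 718: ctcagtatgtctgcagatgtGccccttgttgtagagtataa
Pcna-ps2, positions 678 to 718: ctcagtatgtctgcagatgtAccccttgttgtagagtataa
Counted from 1 at the 5′ end of Pcna-ps2, with the base of Pcna first, the 6 differences are A143G, A176C, G423A, A585G, G617T and G698A. The sequences were 99.2% identical, and the longest run without a difference was 246 bases. A read inside such a run fits both genes equally well.

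The replication genes were expressed across a wide range. Mean levels over the 6 libraries reached at least 100 FPKM for 3 members (Mcm6, Mcm3 and Pcna), lay between 10 and 100 FPKM for 35, between 1 and 10 FPKM for 12, and under 1 FPKM for Fen1 alone. The median of the member means was 26.7 FPKM. The ranking of the 51 genes was nearly the same in every pair of libraries, with Spearman's rho across genes between 0.985 and 0.995. Every tested member rested on at least an estimated 314 reads in each library. FPKM is divided by the merged exon length of all annotated transcripts, so a gene with long rarely used exons reads lower than its main transcript would.

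**Figure D1:**
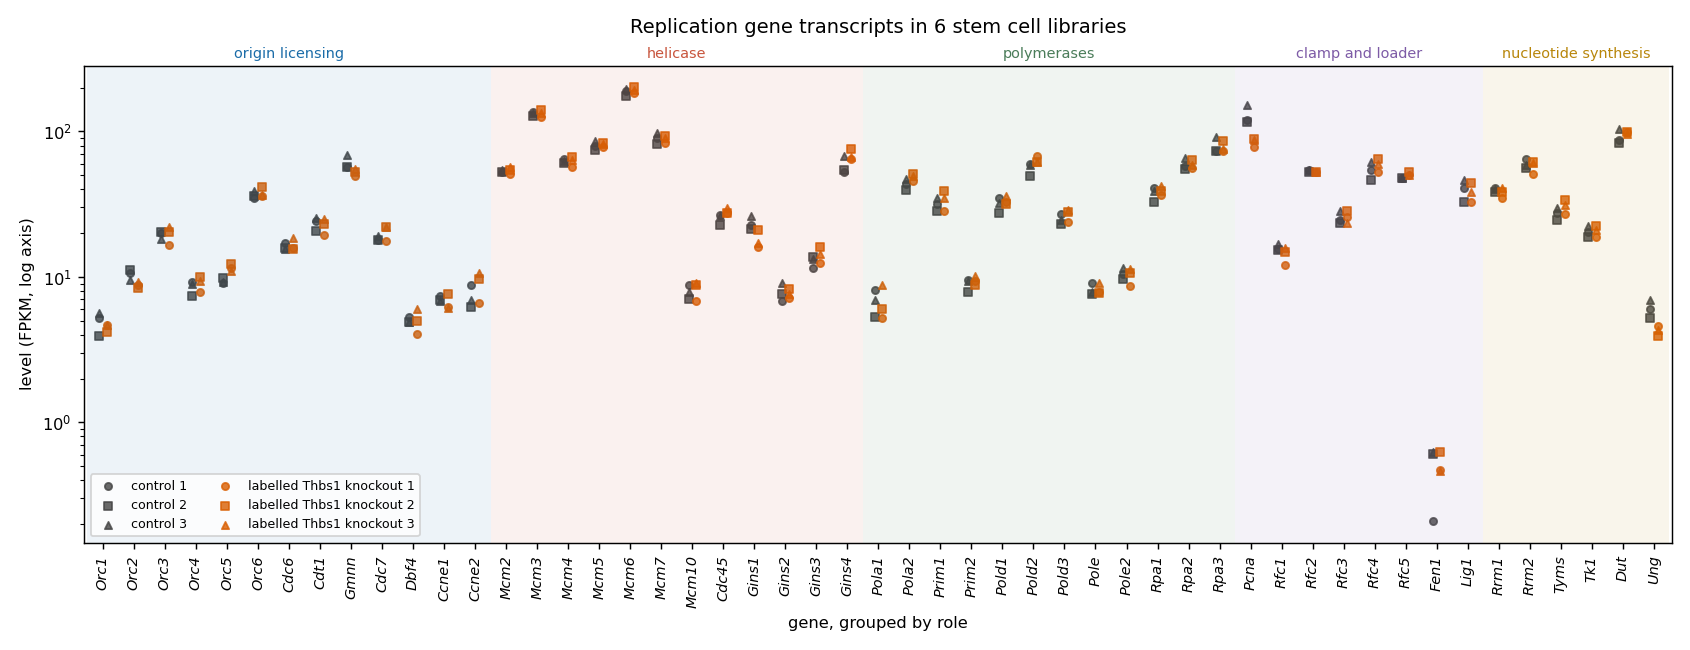
The level of each of the 51 genes in FPKM on a log axis, with 1 symbol per library, dark for control and orange for libraries labelled knockout, grouped by role. For Pcna the control libraries lie above 115 FPKM and the others below 89 FPKM, and Fen1 is the sole gene under 1 FPKM.

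Of the 50 members tested with limma, 0 were called higher in the group labelled knockout and 1, Pcna, was called lower, with Benjamini-Hochberg adjustment over all 12555 tested genes and a threshold of 0.05. Over all tested genes 71 were called higher (0.566%) and 125 lower (0.996%), 1.56% in either direction. Log2 changes are knockout-labelled minus control values of log2(FPKM + 1), which understates the change of low genes. The median change of the members was 0.02, beside 0.014 for all tested genes, with 29 members above 0 and 21 below. At an unadjusted p below 0.05 stood 6 members: Orc5 and Gins4 above 0 and Pcna, Ung, Gins1 and Gmnn below. Of all tested genes, 16.4% stood there. The groups did not overlap for 9 members, beside 22.8% of all tested genes. Pold2, Cdc45, Orc5 and Rfc5 lay above the controls, beside 12.6% of all tested genes, and Orc2, Pcna, Ung, Gmnn and Gins1 below, beside 10.1%. Among the other 49 members the change furthest from 0 was that of Ung, at −0.41, which also had the smallest adjusted p, 0.145.

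The split depends on scaling. FPKM summed over the tested genes came to between 369849 and 405236 in control libraries and between 326672 and 336929 in libraries labelled knockout. Rescaled to TPM, which sets each library to the same sum, the median of all genes shifted to 0.19, and 2016 genes were called higher (13.2%) and 128 lower (0.838%). On that scale 10 members were called higher (Gins4, Dut, Pold2, Tyms, Pola2, Mcm5, Cdc45, Mcm6, Orc5 and Rfc5), with a member median of 0.22, and Pcna was called lower (log2 change −0.40, adjusted p = 0.0246). Relative to the shift of all genes, the 10 changes were between 0.036 (Mcm5) and 0.295 (Orc5). An alternative chosen after seeing the data set protein-coding genes alone to a common sum. With it, 0.717% of genes were called higher, 0 of the members were, and Pcna was lower (limma adjusted p = 0.00586). The share of all genes called lower with it is not reported here.

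**Figure D2:**
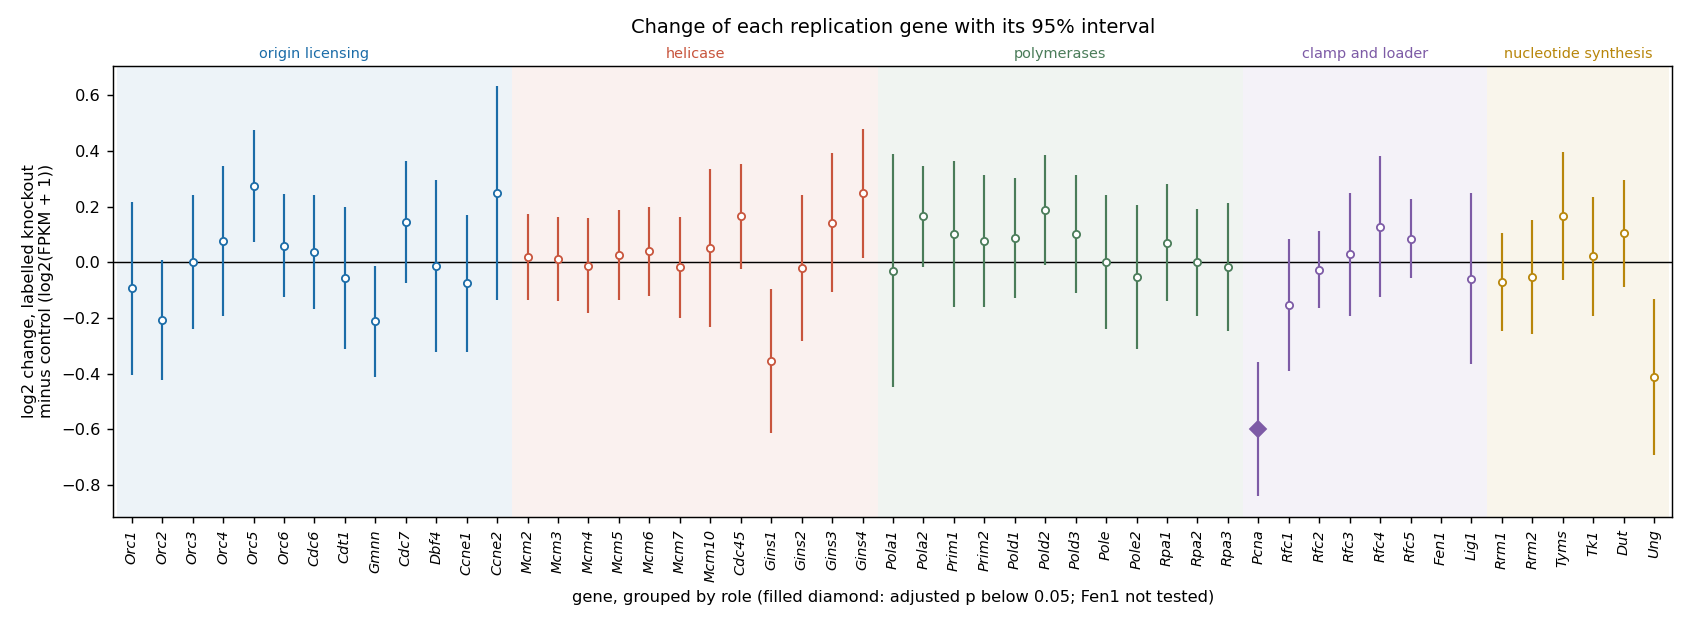
The log2 change of each tested member on the log2(FPKM + 1) scale, libraries labelled knockout minus control, with its 95% interval from limma, grouped by role. The filled diamond is Pcna at −0.60, the sole member called; the intervals of Orc5, Gins4, Gmnn, Gins1 and Ung also leave out 0 but those genes miss the adjusted threshold.

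Most genes of the origin licensing role mark where helicases are loaded, load them or keep loading to once per cycle. The role also holds Cdc7, Dbf4, Ccne1 and Ccne2, which act in origin firing and entry into S phase. Of the 13, limma called 0 in either direction, and their median log2 change was 0.0018. An unadjusted p below 0.05 was found for 2, beside 16.4% of all tested genes. Orc5, a subunit of the origin recognition complex, was at 9.07, 9.89 and 9.27 FPKM in control libraries and at 11.59, 12.26 and 10.94 FPKM in libraries labelled knockout. All 3 of the latter lay above the controls, but the log2 change of 0.27 ± 0.09 (SE) did not pass the test (adjusted p = 0.17 by limma).

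Gmnn encodes geminin, which binds Cdt1 and blocks repeated licensing within a cycle. It stood at 57.37, 56.9 and 68.89 FPKM in control libraries and at 49.41, 52.82 and 54.99 FPKM in libraries labelled knockout, again without overlap (log2 change −0.21, 95% interval −0.41 to −0.014, limma adjusted p = 0.274). Its partner Cdt1 averaged 23.5 ± 2.53 and 22.6 ± 2.94 FPKM (SD, n = 3 each). The ratio of Cdt1 to Gmnn FPKM lay between 0.362 and 0.456 in the 6 libraries, with overlapping groups.

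The groups did not overlap for 3 of the 13 licensing genes, beside 22.8% of all tested genes. Orc2 was the third of them, at 10.58, 11.07 and 9.45 FPKM in control libraries against 8.79, 8.43 and 9.28 FPKM (limma adjusted p = 0.323). Of its 3857 exon bases, 1150 overlap Nif3l1 on the opposite strand, so its level is uncertain. Within the origin recognition complex, Orc6 had the highest mean at 37.3 FPKM and Orc1, one of its ATPase subunits, the lowest at 4.72 FPKM, in each of the 6 libraries. The kinase Cdc7 and its activator Dbf4, which fire licensed origins, differed in level by a ratio of 3.39 to 4.36. The cyclins Ccne1 and Ccne2, which drive entry into S phase, averaged 6.85 and 8.16 FPKM over all libraries, and neither was called.

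The helicase genes had the highest summed level of the 5 roles, between 700.4 and 796 FPKM in a library. Of 12 helicase genes, limma called 0, and their median log2 change was 0.022. The unadjusted p was below 0.05 for 2, beside 16.4% of all tested genes. Mcm6 was at 188.59, 176.29 and 196.37 FPKM in control libraries and at 182.66, 200.99 and 193.13 FPKM in libraries labelled knockout, which is the highest level of any member. The 95% intervals of the log2 change of Mcm2 to Mcm7 lay between −0.20 and 0.20 for all 6 subunits. The 6 subunits form a ring with 1 copy of each, yet Mcm6 FPKM was between 3.36 and 3.69 times Mcm2 FPKM in every library. Their order was the same in all 6 libraries, from Mcm6 through Mcm3, Mcm7, Mcm5 and Mcm4 to Mcm2.

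The GINS complex has 4 subunits, and 2 of them leaned in opposite directions. Gins1 was at 22.57, 21.25 and 26.2 FPKM in control libraries and at 16.05, 21.11 and 17.13 FPKM in libraries labelled knockout, so the groups did not overlap but nearly touched. Its log2 change of −0.35 (95% interval −0.61 to −0.094) did not pass the test (limma adjusted p = 0.173). Gins4 stood at 52.88, 54.66 and 67.47 FPKM against 64.57, 76.13 and 66.88 FPKM, with overlap (log2 change 0.25, limma adjusted p = 0.278). The order from Gins4 through Gins1 and Gins3 to Gins2 held in all 6 libraries. Most of the exon length of Gins2, 2758 of 4097 bases, overlaps Gse1 on the opposite strand, and the library kit does not mark strand. How reads of the shared stretch were counted is not stated, so the mean of 7.76 FPKM for Gins2 is uncertain.

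Cdc45, which joins the Mcm ring and GINS, was at 26.49, 22.63 and 26.32 FPKM in control libraries and at 27.49, 27.61 and 29.68 FPKM in libraries labelled knockout (log2 change 0.16, limma adjusted p = 0.369). The 3 labelled libraries lay above the controls by a small margin. Mcm10, which helps start the helicase, averaged 8.04 FPKM and was not called.

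Polymerase, primase and single-strand binding genes held the highest median change of the 5 roles, 0.074. Of these 12 genes, limma called 0, and 0 stood at an unadjusted p below 0.05, beside 16.4% of all tested genes. Pold2, the second subunit of polymerase delta, was at 59.37, 49.38 and 58.81 FPKM in control libraries and at 68.06, 61.44 and 61.2 FPKM in libraries labelled knockout. It was the sole gene of the 12 in this role whose groups did not overlap, beside 22.8% of all tested genes. Its log2 change was 0.19 (95% interval −0.01 to 0.38, limma adjusted p = 0.334).

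Pola2, the regulatory subunit of polymerase alpha, stood at 43.72, 39.82 and 46.79 FPKM in control libraries against 45.88, 51.35 and 49.15 FPKM (limma adjusted p = 0.352). Pold3, another subunit of polymerase delta, was at 27.08, 23.16 and 24.6 FPKM against 23.84, 27.92 and 28.77 FPKM (limma adjusted p = 0.649). Both overlapped between the groups. Rpa3, the smallest subunit of the single-strand binding protein RPA, had the highest mean of the role, with 73.04, 73.53 and 91.98 FPKM in control libraries and 73.43, 86.11 and 75.32 FPKM in libraries labelled knockout, a log2 change of −0.017.

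Subunits of the same polymerase were read at unequal levels in every library. The catalytic subunit Pola1 averaged 6.71 FPKM and Pola2 46.1 FPKM. In polymerase delta, Pold2 averaged 59.7 and Pold3 25.9 FPKM. In RPA, Rpa3 averaged 78.9 and Rpa1 38.4 FPKM. In each of these 3 complexes the order of the subunits was the same in all 6 libraries.

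Among the 7 tested clamp and loader genes, 4 had a log2 change below 0, and Pcna was the sole one called. Pcna (ENSMUSG00000027342, chr2:132249162-132253314, GRCm38) forms the ring that tethers polymerases to DNA and recruits repair and chromatin factors. It was at 120.2, 115.4 and 152.19 FPKM in control libraries and at 77.58, 88.16 and 87.78 FPKM in libraries labelled knockout. The highest labelled library lay below the lowest control. The mean fell from 129 ± 20 to 84.5 ± 6.002 FPKM (SD, n = 3 each), with a log2 change of −0.60 ± 0.11 (SE, 95% interval −0.84 to −0.36, limma adjusted p = 0.0309).

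Pcna-ps2, by contrast, was at 2.73, 3.72 and 3.78 FPKM in control libraries and at 45.49, 47.71 and 43.73 FPKM in libraries labelled knockout (limma adjusted p = 9.9e-07). The other annotated pseudogene, Pcna-ps1, was listed at 0 in all 6. Because Pcna has 2400 bases of exon and Pcna-ps2 781, the rows were added as RPM, which is FPKM multiplied by exon length in kilobases and so counts reads without regard to gene length. Pcna fell from 310.2 ± 48.0 to 203 ± 14.4 RPM, a fall of 107, while Pcna-ps2 rose by 33.0 RPM. Pcna-ps2 held between 0.734% and 1.04% of the summed reads in control libraries and between 14.0% and 16.02% in libraries labelled knockout.

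The sum of both rows was 290.6, 280 and 368 RPM in control libraries and 222, 249 and 245 in libraries labelled knockout. The groups still did not overlap, and the means were 313 ± 48.2 and 238 ± 14.6 RPM (SD, n = 3 each), a difference of −23.8%, beside −34.6% for Pcna alone (exact two-sided permutation p = 0.1 for each, the smallest that 3 against 3 libraries allow). With the pseudogene reads added to Pcna before the fit over all genes, an alternative chosen after seeing the data, the log2 change was −0.38 ± 0.10 (SE) and the call was lost (limma adjusted p = 0.118). Which locus the pseudogene reads came from cannot be told from these values.

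**Figure D3:**
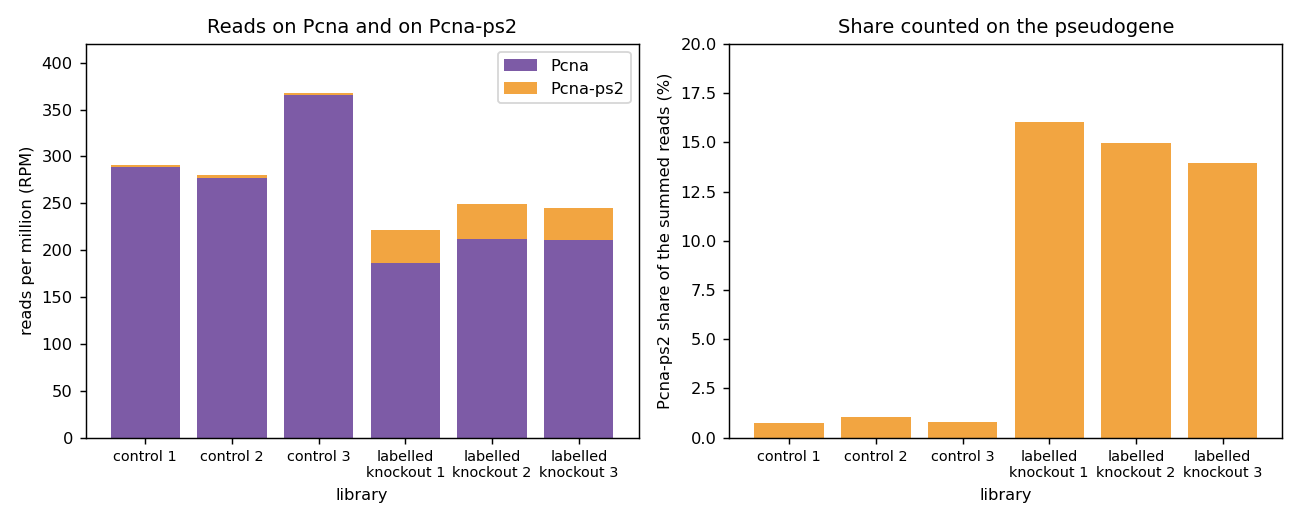
Left, RPM on Pcna (purple) with those on Pcna-ps2 (orange) stacked on top, for each of the 6 libraries; right, the share of the summed reads on Pcna-ps2 in percent. The 3 stacked bars labelled knockout reach 222 to 249, all below the control bars at 280 to 368, and the share on the pseudogene is at most 1.04% in control libraries and at least 14.0% in the others.

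The call of Pcna was near the threshold. Leaving out each in turn gave log2 changes between −0.67 and −0.48 and adjusted p between 0.0384 and 0.0863 (limma), and the call was lost without control library 1 (0.0522) and without labelled library 1 (0.0863), 2 (0.0824) or 3 (0.081). It was also lost with no filter on low genes (0.22) and with a variance prior that ignores the mean level (0.0981). Pcna lies 14.1 Mb from Thbs1 on chromosome 2. Of the 230 tested genes within 20 Mb of Thbs1, 21 were called in either direction (9.13%), beside 1.56% of all tested genes. Dut lies in the same interval, 7.12 Mb from Thbs1, and was not called. Genotype and the sequence around Thbs1 cannot be told apart in this design.

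The loader genes Rfc1 to Rfc5 and the ligase Lig1, which seals the lagging strand, showed no call. The median log2 change of the 7 tested clamp and loader genes, Pcna included, was −0.026. Rfc5 was at 48.17, 47.83 and 48.18 FPKM in control libraries and at 49.77, 52.96 and 50.45 FPKM in libraries labelled knockout, a narrow shift of 0.09 on the log2 scale without overlap (limma adjusted p = 0.554). Rfc1, the large subunit that is specific to this loader, was at 15.64, 15.28 and 16.78 FPKM against 12.12, 14.8 and 15.9 FPKM (log2 change −0.15, limma adjusted p = 0.517). Rfc1 had the lowest level of the 5 loader subunits in every library, with a mean of 15.1 FPKM beside 56.7 FPKM for Rfc4.

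Fen1, the flap endonuclease that trims Okazaki fragments, stood at 0.21, 0.61 and 0.62 FPKM in control libraries and at 0.47, 0.62 and 0.46 FPKM in libraries labelled knockout, and did not pass the filter. Of its 2422 exon bases, 2039 overlap Tmem258 or Gm10143 on the opposite strand. Tmem258 stood between 65.88 and 79.19 FPKM. How reads of the shared stretch were counted is not stated, so this reading is no measure of Fen1 expression.

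Nucleotide synthesis genes had 0 calls of 6 by limma, with a median log2 change of −0.016. The 1 gene at an unadjusted p below 0.05, beside 16.4% of all tested genes, was Ung. Ung encodes the uracil DNA glycosylase, which removes uracil from DNA, and is grouped here although it makes no nucleotide. It was at 5.99, 5.23 and 6.9 FPKM in control libraries and at 4.57, 3.92 and 4.33 FPKM in libraries labelled knockout, with every labelled library below the controls. Its mean was 6.04 ± 0.836 against 4.27 ± 0.329 FPKM (SD, n = 3 each), and the log2 change of −0.41 (95% interval −0.69 to −0.13) missed the threshold (limma adjusted p = 0.145).

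Dut, the enzyme that removes dUTP and so keeps uracil out of DNA, had the highest level of the role. It was at 87.21, 83.84 and 103.91 FPKM in control libraries and at 98.85, 99.55 and 96.14 FPKM in libraries labelled knockout, with overlap (log2 change 0.10, limma adjusted p = 0.597). Tyms, thymidylate synthase, was at 27.34, 24.58 and 29.85 FPKM against 27.01, 33.79 and 31.44 FPKM (log2 change 0.17, limma adjusted p = 0.462). The ribonucleotide reductase subunits Rrm1 and Rrm2 averaged 39.0 and 58.6 FPKM, and their ratio lay between 0.631 and 0.689 in the 6 libraries. Thymidine kinase Tk1 averaged 20.5 ± 1.83 and 20.8 ± 1.82 FPKM (SD, n = 3 each).

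The spread within each group was larger than the difference between the groups, and it ran in step across the roles. Relative to each gene's mean over the 6 libraries, the median deviation of the 50 tested members was 0.031, −0.10 and 0.039 (log2) in control libraries 1 to 3 and −0.10, 0.068 and 0.063 in libraries labelled knockout 1 to 3. In control library 2 and in labelled library 1, 41 of 50 members lay below their own mean, against between 13 and 21 in the other libraries. The median of all tested genes stayed within 0.02 of 0 in every library. These are descriptions of single libraries, since the genes of a library share its cells and its preparation.

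Each of the 5 roles was below 0 in those 2 libraries. The 33 tested genes from a list of other replication fork genes showed the same pattern, with medians of −0.099 in control library 2 and −0.089 in labelled library 1 and values above 0 in the other 4. The 11 genes of chromatin assembly behind the fork were lowest in the same 2 libraries, at −0.13 and −0.061. Genes of G2 and mitosis were lowest in labelled library 1, at −0.18, but stood at −0.024 in control library 2.

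**Figure D4:**
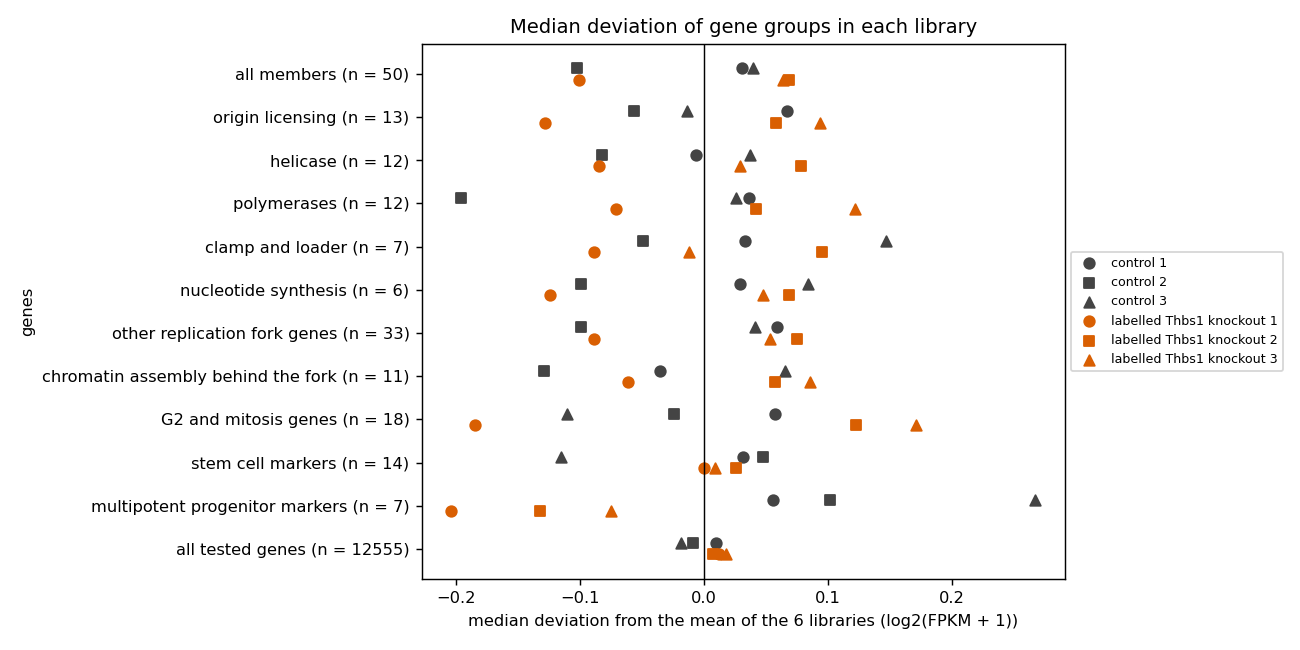
The median deviation of each gene group from the genes' mean over the 6 libraries, on the log2(FPKM + 1) scale, with 1 symbol per library. For the replication genes and their 5 roles, control library 2 and labelled library 1 lie left of 0, at −0.10 for all members, while the multipotent progenitor markers separate the groups and all tested genes stay near 0.

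The other genes of the replication fork and of nucleotide supply were described from lists that also include regulators. Of 33 tested fork genes outside the members, limma called 0 in either direction, and the median log2 change was −0.0082. At an unadjusted p below 0.05 stood 2 of them, beside 16.4% of all tested genes. Pole4, a small subunit of polymerase epsilon, had the smallest p, at 76.8 ± 4.68 against 90.05 ± 5.57 FPKM (SD, n = 3 each; limma adjusted p = 0.178). Rnaseh2a, the catalytic subunit of the enzyme that removes ribonucleotides from DNA, averaged 25.4 and 29.5 FPKM, and the Mcm-binding protein Mcmbp 24.4 and 27.1 FPKM. Rescaled to TPM, 6 of 34 tested fork genes were called higher and 0 lower, beside 13.2% of all genes called higher.

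Of 34 tested genes from the other nucleotide supply list, limma called 0 in either direction. Among them 12 stood at an unadjusted p below 0.05, 9 above 0 and 3 below, and 17 did not overlap, beside 16.4% and 22.8% of all tested genes. Their median log2 change was 0.12. Dctd, which deaminates dCMP on the way to thymidylate, was at 30.71, 27.94 and 31.56 FPKM in control libraries and at 39.48, 41.13 and 35.38 FPKM in libraries labelled knockout (log2 change 0.35 ± 0.08 SE, limma adjusted p = 0.0803). Dhodh, the mitochondrial enzyme of pyrimidine synthesis, was at 9.72, 8.98 and 9.19 FPKM against 11.96, 13.11 and 11.76 FPKM (log2 change 0.37, limma adjusted p = 0.0857). Shmt1, a folate enzyme that feeds thymidylate synthesis, averaged 25.8 ± 3.14 and 33.5 ± 3.07 FPKM (SD, n = 3 each; limma adjusted p = 0.13). None of the 3 overlapped between the groups. Rescaled to TPM, 19 of 35 tested genes of this list were called higher (54.3%) and 0 lower, beside 13.2% of all genes called higher, and their median was 0.13 above that of all genes.

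Of 19 E2F and RB regulators, limma called 0, and 1, E2f6, stood at an unadjusted p below 0.05, with 22.7 ± 1.09 against 27.3 ± 1.42 FPKM (SD, n = 3 each; limma adjusted p = 0.139). The pocket protein Rbl1 averaged 21.04 and 17.2 FPKM and the repressor-type factor E2f4 75.0 and 81.4 FPKM. Of 11 chromatin assembly genes and 18 tested genes of G2 and mitosis, limma called 0 in either direction, with 1 unadjusted p below 0.05 in each list, those of the histone mRNA binding protein Slbp and of Ube2c, which works with the anaphase-promoting complex. Of all tested genes, 16.4% stood at an unadjusted p below 0.05. Rescaled to TPM, 4 of 19 regulators, 3 of 11 chromatin assembly genes and 1 of 20 genes of G2 and mitosis were called higher. On that scale 13.2% of all genes were called higher.

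Promoters of the members were read for E2F-type sites, since E2F factors are the textbook regulators of these genes. A RefSeq window (GRCm38.p6) from 250 bases before to 50 after the start was found for 42 of the 51 members. The E2F letters searched on both strands were TTTCCCGC, TTTGGCGC, TTTCGCGC, TTTGCCGC, TTCCCGCC and TTGGCGCC, whose matches may overlap each other. They occurred for 21 of the 42 members with a window (50%), beside 1381 of 27025 genes with a window (5.1%). A gene with several windows, such as Lig1, was counted once, with a match if any window held one. The members with a match were 6 licensing, 5 helicase, 5 polymerase, 4 clamp and loader and 1 nucleotide synthesis gene. CCAAT, the core of the NF-Y site, occurred for 54.8% of these members and 41.1% of all genes with a window. TTTGAA, the core of the CHR element of late cell cycle genes, occurred for 16.7% and 20.2%.

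A stretch of 30 bases around a match is shown for 1 gene of each role, chosen after the sequences were seen, with the matching letters in capitals and the strand of the gene.
Orc1, chr4:108579416-108579445, plus strand: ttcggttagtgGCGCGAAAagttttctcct
Mcm6, chr1:128359795-128359824, minus strand: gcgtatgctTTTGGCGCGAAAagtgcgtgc
Pola1, chrX:93632275-93632304, minus strand: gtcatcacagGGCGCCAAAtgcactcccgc
Rfc3, chr5:151651195-151651224, minus strand: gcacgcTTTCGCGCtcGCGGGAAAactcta
Rrm1, chr7:102441617-102441646, plus strand: aggagaactcgTTCCCGCCaggtccgcttt
The Mcm6 stretch begins 119 bases before the start and holds overlapping matches on both strands, and the Rfc3 stretch spans the start. The 21 members with a match had a median log2 change of 0.025 between the groups, from −0.15 to 0.14, and the 20 tested members with a window and no match had one of 0.036, from −0.60 to 0.27. Pcna, Ung and Orc5 had no match in their windows. A match describes the letters of a window and is not a measured binding site.

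Some other members also share close matches with genes elsewhere in the genome. Cdc6 resembles the pseudogene Gm9430 at 95.2% over 1528 bases, and Gm9430 averaged 0.03 FPKM in both groups. Rfc5 resembles Gm12870 at 96.2% over 1020 bases, which averaged 1.03 and 0.653 FPKM. Tyms, with 6089 bases of exon, shares only stretches of at most 360 bases with several unrelated genes. Among them are 355 bases at 97.7% with Reep3, which averaged 7.05 and 5.66 FPKM. Of the 51 members, 18 share some exon bases with another gene. At least 10% of the exon length is shared in 9: Orc1, Orc2, Ccne2, Mcm7, Gins2, Rfc2, Rfc4, Rfc5 and Fen1. Reads of the shared bases cannot be assigned in an unstranded library, and how they were counted is not stated, so these levels are uncertain.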

How the data were processed

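RNA of sorted stem cells, 2 ng per library, was made into libraries with the SMART-Seq v4 kit, per the labels' protocols. FastQC 0.11.5, STAR, edgeR, GRCm38 and mm10 are named in the submitters' processing notes; the annotation and counting rule are not stated there. The authors deposited FPKM with 2 decimals for 52183 genes, and all IDs matched GENCODE M21. Depth was estimated from the steps between FPKM of genes with up to 400 bases of exon. FPKM are not counts, so no count model was run. Genes with at least 1 FPKM in 3 of 6 libraries (12555) entered limma 3.58.1 (R 4.3.3) as log2(FPKM + 1), with a two-sided test and a trended prior, after a check on simulated data, with Benjamini-Hochberg adjustment at 0.05 and group as the single term. Intervals are 95% intervals of limma's moderated test. Near copies and shared stretches were found with BLAST 2.17.0 (at least 95% identity over 200 bases).

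The members and the 11 gene lists were chosen with earlier results of these data known. Named were called members, in each role the 3 with the smallest p and the one with the highest mean, Pcna with its pseudogenes, Thbs1, and up to 3 genes of each other list; the remaining members named in the text illustrate complexes and were picked with their values known. Some genes that this rule selected are not reported here.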

Additional observations from a re-analysis of the deposited data

How the results depend on the processing

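All 71 higher and 125 lower calls are relative to the scaling and filter. With no filter, 8 genes were higher and 16 lower; with a mean of at least 5 FPKM, 112 were higher, and Dctd was called, the 1 higher call among the other replication and nucleotide genes. Rescaled to TPM, 2016 genes were higher, with 10 of 51 members and 33 of 119 genes of the 5 other lists among them, beside 13.2% of all genes, and the member median was 0.22. Without the intensity trend 24 genes were higher and 65 lower, with array weights 112 were higher, and with the replicate number as a block 27 were higher and 54 lower; Pcna was the 1 member lower under the block, at an adjusted p of 0.0422. Same-numbered libraries did not deviate together from their group means (correlations −0.11, 0.037 and −0.079). Means of 3 libraries make this a weak guide, so whether equal numbers share a batch cannot be told.

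The count of lower members was 0 instead of 1 with no filter, without the trend, with the pseudogene reads added to Pcna (log2 change −0.38) and without genes within 20 Mb of Thbs1, where Pcna is not tested. The Pcna change of −0.60 had adjusted p of 0.22 with no filter and 0.0981 without the trend. Leaving out each library gave 16 to 38 higher and 43 to 77 lower genes, 0 to 1 lower members, a Pcna change of −0.67 to −0.48, a member median of −0.02 to 0.075 and a summed Pcna change of −27.6% to −16.4% (exact permutation p between 0.1 and 0.2). Since TPM moved the median of all genes to 0.19, 16 of 50 members turned from below to above 0 with it, and 4 of 50 changed sides relative to that median. Small uncalled changes of the members chosen by the naming rule changed sign: Rfc1 to 0.039 and Rpa3 to 0.185 with TPM, though relative to the median of all genes they were at −0.15 and −0.0069; Rpa3 to 0.038 with array weights, 0.091 without control library 3, 0.026 without labelled library 1 and 0.0083 without labelled library 3; and Mcm6 to −0.0024 without control library 2. With each library left out in turn, Rpa3 ranged from −0.087 to 0.091 and Mcm6 from −0.0024 to 0.076. Of the other values of these members except Pcna, 271 kept direction and side of the threshold and 9 passed it with TPM, as did Mcm5 outside the rule. Every tested member rested on at least an estimated 314 reads in each library, and 3 libraries per group limit the intervals.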
